A study of Mus musculus with 8 samples.

Results

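The protein kinase C (PKC) isoforms described here are the 8 genes *Prkca*, *Prkcb*, *Prkcd*, *Prkce*, *Prkch*, *Prkci*, *Prkcq* and *Prkcz*, chosen by name from the 46040 genes of the count table. All 8 were among the 13542 genes that passed the filter on low counts, a CPM (a gene's counts as a share of the library's total, scaled to 1000000) of at least 1 in at least 2 libraries. RNA was sequenced from the left ventricles (LVs) of male C57BL/6 mice aged 5 to 7 months, all of which had received angiotensin II (angII) at 0.1 mg/kg/h from subcutaneous pumps until day 14 to induce left ventricular hypertrophy (LVH). The VEGFR-1 TK-/- group (4 libraries) lacks the intracellular tyrosine kinase domain of VEGFR-1, the product of *Flt1*, in every cell that carries the allele, and the control group (4 libraries) consists of littermates. Only mice alive on day 14 could be sampled, and no library of untreated mice was analysed here, so that the response to angII itself cannot be read from these values. The labels do not state that each library came from its own mouse. Every pair of libraries of a group differed by more than counting noise (chi-square per degree of freedom 5.31 to 37.4), and p-values measure the spread between these libraries, whose source the labels do not give.

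The genotype tags and the library names, by which the libraries were grouped, say the opposite of the sample titles for every library. If the titles are right, every sign below is reversed. The library names also speak of cardiomyocytes, whereas the source label gives LV tissue. Endothelial, fibroblast and leukocyte markers were present in all libraries, at summed levels of at least 2296, 825 and 139.8 CPM, beside cardiomyocyte markers at 73287 to 115728 CPM. Of 7 skeletal muscle markers, summed at 3.48 to 4.91 CPM, *Tnnt3*, *Tnni2* and *Mylpf* passed the filter and *Myh2* and *Myh4* had no count. Of 4 atrial markers, *Sln* stayed below the filter, *Myl7* and *Myl4* were at 0.741 and 3.96 CPM on average, and *Nppa*, which the loaded ventricle also expresses, was at 498.4 to 1425 CPM. Between 11449137 and 16239670 counts per library fell on genes, so that a gene at 1 CPM before normalization had 11.4 to 16.2 reads. *Flt1* itself was at 56.9 to 84.3 CPM in the control and at 143.5 to 169.6 CPM in the VEGFR-1 TK-/- libraries. Since reads were summed over all its exons, this value says nothing of the removed domain and does not settle the labels. All CPM values printed for genes are normalized with TMM factors (0.917 to 1.12).

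PKC isoforms are serine-threonine kinases that are held inactive by a pseudosubstrate, a stretch of the regulatory part that occupies the active site. The conventional isoforms (*Prkca*, *Prkcb*) are activated by calcium together with diacylglycerol (DAG), the calcium-independent isoforms, called nPKC, (*Prkcd*, *Prkce*, *Prkch*, *Prkcq*) by DAG alone, and the atypical isoforms (*Prkci*, *Prkcz*) by neither of them but through partner proteins such as Par6 and p62. In the heart, angII, endothelin and α1-adrenergic receptors couple through Gq to phospholipase C, which makes DAG. PKCα is known to dampen contractility, and PKCε and PKCδ are known from hypertrophy and ischemia. The study examined PKCα because of its role in hypertrophy. The counts measure RNA, and phosphorylation or activity of the proteins was not analysed here.

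A serine or glutamate near the C-terminal end of the kinases separates the atypical isoforms from the conventional and nPKC isoforms. The windows below show its codon in capitals within the coding sequence, 5′ to 3′, read from GENCODE M21 transcripts on GRCm38. They are shown since phosphorylation of this serine completes the maturation of conventional and nPKC isoforms, while atypical isoforms carry a glutamate in its place.
Prkca (chr11:107939549-107939590, minus strand): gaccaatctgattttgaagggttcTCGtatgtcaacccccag
Prkcb (chr7:122627746-122627787, plus strand): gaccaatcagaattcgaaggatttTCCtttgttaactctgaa
Prkcd (chr14:30595891-30595932, minus strand): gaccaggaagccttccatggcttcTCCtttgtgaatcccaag
Prkce (chr17:86654634-86654675, plus strand): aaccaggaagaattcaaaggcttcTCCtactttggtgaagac
Prkch (chr12:73777005-73777046, plus strand): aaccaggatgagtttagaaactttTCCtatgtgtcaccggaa
Prkcq (chr2:11300060-11300101, plus strand): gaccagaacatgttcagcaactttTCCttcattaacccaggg
Prkci (chr3:31050209-31050250, plus strand): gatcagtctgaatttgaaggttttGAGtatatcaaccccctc
Prkcz (chr4:155262471-155262512, minus strand): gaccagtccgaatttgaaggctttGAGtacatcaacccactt
The codon stands for residue 657 of the 672 residues of *Prkca*, and it is TCG there and TCC in the other 5 conventional and nPKC isoforms. In *Prkci* and *Prkcz* it is GAG, at residues 582 and 579. Each window lies within a single exon, number 17 of *Prkca* and number 14 of *Prkch* in the transcripts used.

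The pseudosubstrate differs between the classes in its surroundings and position. Capitals mark the codons of the 6 residues that hold the alanine found where a substrate has its serine or threonine. The isoforms shown are the conventional *Prkca*, the nPKC *Prkch*, whose values differed most in relation to their spread (below), and the atypical *Prkcz*.
Prkca (chr11:108343575-108343616, minus strand, exon 1): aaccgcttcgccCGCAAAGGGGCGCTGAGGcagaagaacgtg
Prkch (chr12:73691580-73691621, plus strand, exon 3): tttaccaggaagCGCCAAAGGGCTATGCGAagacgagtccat
Prkcz (chr4:155354654 and chr4:155300975-155301015, minus strand, exons 4 and 5): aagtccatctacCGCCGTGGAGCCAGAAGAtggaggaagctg
The alanine was residue 25 in *Prkca*, 161 in *Prkch* and 119 in *Prkcz*. The similarity of the isoforms bears on whether their reads can be told apart. Coding sequences of the 28 pairs of isoforms were identical in 54.95% to 76.78% of aligned bases, with *Prkca* and *Prkcb* the closest pair. The longest run shared without mismatch by annotated transcripts of any pair was 38 bases, in the same pair, against a read length of 100 bases.

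None of the 8 isoforms was called between VEGFR-1 TK-/- and control LVs. In edgeR's quasi-likelihood test, a call required an FDR (p adjusted by Benjamini-Hochberg over the whole table of tested genes) under 0.1 together with a log2 fold change beyond ±0.585, which was the case for 0.00738% of the genes tested. That share is 1 gene, *Flt1* itself (log2 fold change 1.19, FDR = 0.00808 by the same test). The log2 fold changes of the 8 isoforms ran from −0.25 for *Prkch* to 0.34 for *Prkcb*. Of these, 4 were positive (higher in VEGFR-1 TK-/- libraries) and 4 negative. Their median was −0.02, against −0.0012 over all genes tested, and their median absolute value was 0.17, against 0.13. The lowest FDR of the 8 was 0.519 (*Prkch*). An unadjusted p under 0.05 was found in 1 of the 8, and in 8.96% of all genes. By the likelihood ratio test of edgeR, which the study used, 0.391% of all genes and 0 of the 8 isoforms were called. DESeq2 called 0 of the 7 isoforms to which it gave an adjusted p, *Prkcb* being left without.

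**Figure D1:**
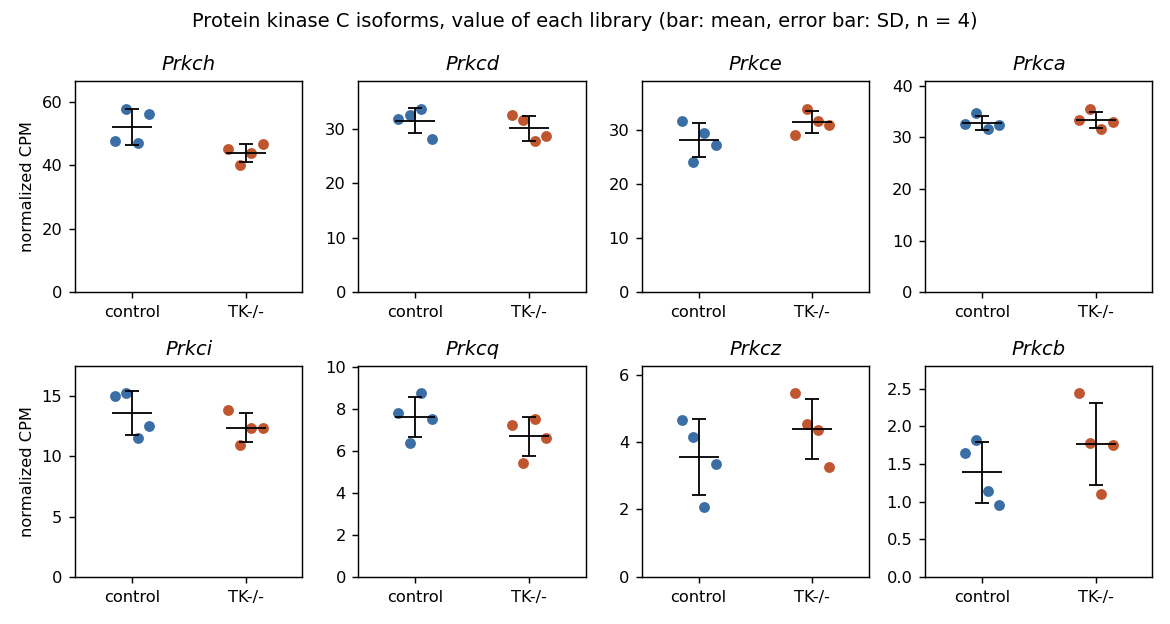
Each panel plots normalized CPM (linear axis from 0) of 1 isoform in the 4 control and 4 VEGFR-1 TK-/- (TK-/-) libraries, with the mean and SD of each group. The groups overlap in every panel except that of *Prkch*, where the lowest control library (47.0) is just above the highest VEGFR-1 TK-/- library (46.6).

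The error of each fold change sets what the comparison could show. For 6 of the 8 isoforms, the 95% interval of the log2 fold change lay within ±0.585, which holds for 64.8% of all genes tested. The exceptions were *Prkcb* (−0.34 to 1.02) and *Prkcz* (−0.25 to 0.87), the isoforms with the fewest reads. For these 2 genes, the libraries do not show whether a change beyond the threshold was present or absent.

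**Figure D2:**
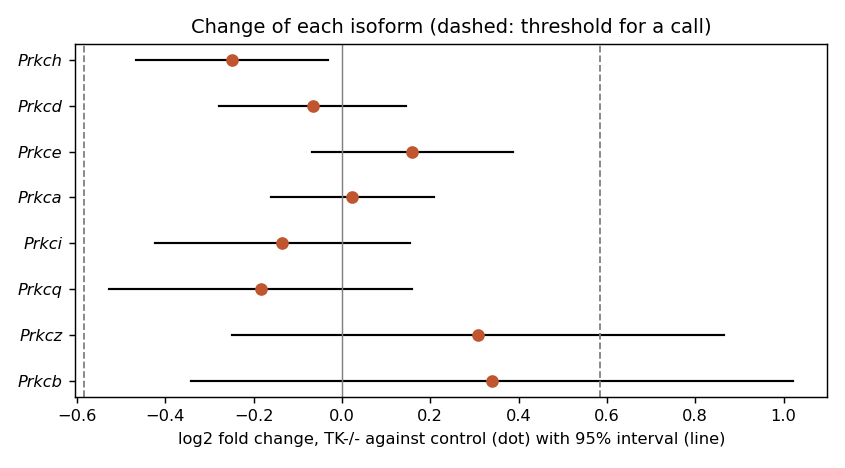
Dots give the log2 fold change of each isoform in VEGFR-1 TK-/- against control libraries and lines its 95% interval, ordered from top to bottom by level per kilobase. The lines of *Prkcz* and *Prkcb* cross the dashed threshold at 0.585, and only that of *Prkch* (−0.47 to −0.03) leaves out 0.

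Levels of different genes are compared per length, as normalized CPM per kilobase of annotated exon. On this scale, averaged over the 8 libraries, *Prkch* was highest at 6.38 ± 0.803 (SD, n = 8), followed by *Prkcd* at 5.56 ± 0.414, *Prkce* at 4.11 ± 0.419 and *Prkca* at 3.68 ± 0.158. *Prkci* (2.34 ± 0.285), *Prkcq* (1.01 ± 0.142), *Prkcz* (0.629 ± 0.164) and *Prkcb* (0.206 ± 0.0637) followed. The ranges of *Prkch* and *Prkcd* overlapped, as did those of *Prkce* and *Prkca*, and in each of these pairs the order held in 7 of 8 libraries. *Prkcq* and *Prkcz* also overlapped in range, although *Prkcq* was higher in each of the 8 libraries. All other neighbours in this order were separated by more than their spread. With the longest transcript as the length in place of all exons the order was the same, and with counts not divided by length *Prkca* stood second (19.8% of the counts of the 8 genes, after *Prkch* with 28.6%).

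The 4 nPKC isoforms made up most of the summed level per kilobase, 72.0% ± 1.91 in the control and 70.7% ± 0.803 in the VEGFR-1 TK-/- libraries (SD, n = 4 each). The conventional pair held 15.7% ± 0.366 and 16.9% ± 0.805, nearly all of it *Prkca*, and the atypical pair 12.3% ± 1.70 and 12.5% ± 1.05. The summed level of the nPKC isoforms spanned 17.3 to 17.8 normalized CPM per kilobase in the control and 16.2 to 16.9 in the VEGFR-1 TK-/- libraries, without overlap. The sum includes *Prkch*, the only isoform whose groups did not overlap by itself, as in 4.98% of all genes tested. It was not computed from total counts, with which the groups of *Prkch* overlapped. Within the nPKC class *Prkch* and *Prkce* differed in opposite directions. The sum over all 8 isoforms was 24.4 ± 0.750 and 23.4 ± 0.627, with overlapping groups, and no isoform's share was separated between the groups. These sums were looked at after the single values and are given without a test.

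**Figure D3:**
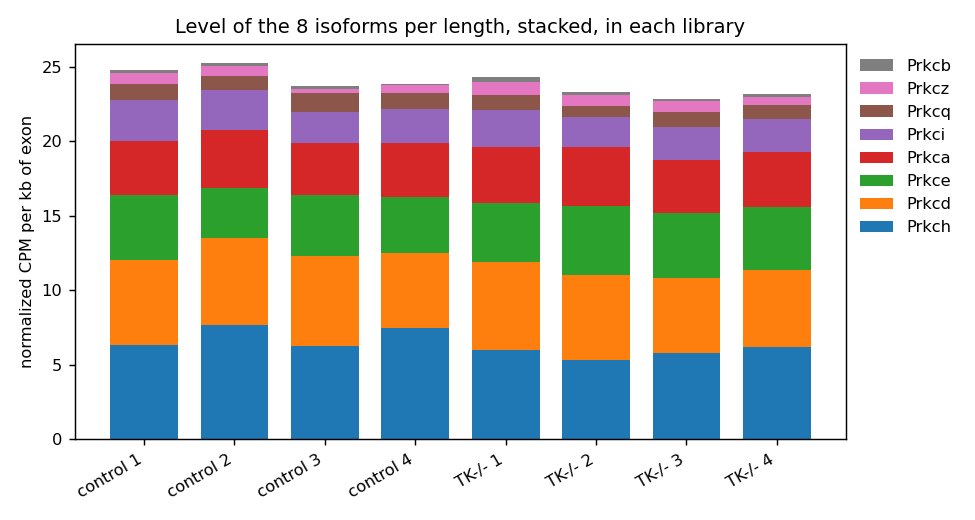
Stacked bars give normalized CPM per kilobase of exon of the 8 isoforms in each library. The bars reach 22.8 to 25.3 in all, and *Prkch*, *Prkcd*, *Prkce* and *Prkca*, the 4 lowest segments, make up the greater part of each.

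*Prkca* (ENSMUSG00000050965) spans 410.5 kb of the minus strand of chromosome 11 (107933387 to 108343928, GRCm38). It encodes PKCα, the isoform whose phosphorylation the study measured in LV protein. Control replicates 1 to 4 were at 32.6, 34.8, 31.5 and 32.5 normalized CPM. VEGFR-1 TK-/- replicates 1 to 4 were at 33.3, 35.6, 31.7 and 33.0 normalized CPM. The values of both groups thus lay on top of each other, at means of 32.9 ± 1.36 and 33.4 ± 1.63 (SD, n = 4). The log2 fold change was 0.02 (FDR = 0.954 with the quasi-likelihood test of edgeR, SE 0.08), and the 95% interval of the fold ran from 0.894 to 1.16. *Prkca* was also among the steadiest genes of the data set: its SD between libraries of one group, 0.06 on the log2 scale, was lower than that of all but 1.71% of the genes tested. Its exons share 30 bases with *Apoh* on the opposite strand, which had 0 to 4 counts per library.

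*Prkcb* (ENSMUSG00000052889, chromosome 7, 122288751 to 122634402) encodes PKCβ, a conventional isoform whose splice forms the counts do not separate. It had 12 to 25 counts per control library and 14 to 30 per VEGFR-1 TK-/- library. Its normalized CPM was 1.65, 1.81, 1.14 and 0.960 in control LVs against 2.44, 1.78, 1.11 and 1.75 in VEGFR-1 TK-/- LVs. Replicate 1 of the VEGFR-1 TK-/- group was the highest of all and the groups overlapped otherwise. The log2 fold change of 0.34 (FDR = 0.769 with the quasi-likelihood test of edgeR, SE 0.31) was the largest of the 8 and was about as large as its error. PKCβ is known from leukocytes, and the sum of 10 leukocyte markers was 194.2 to 235.4 CPM in the control and 139.8 to 199.98 CPM in the VEGFR-1 TK-/- libraries, with a negative log2 fold change in 9 of the 10. Relative to this sum, the log2 level of *Prkcb* was −7.32 ± 0.408 in the control and −6.63 ± 0.303 in the VEGFR-1 TK-/- libraries (SD, n = 4), a difference of 0.69 with overlapping groups.

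*Prkch* (ENSMUSG00000021108, chromosome 12, 73584796 to 73778185, plus strand) encodes PKCη, an nPKC isoform known from epithelia, endothelium and lymphocytes. Replicates 1 to 4 had normalized CPM values of 47.6, 57.9, 47.0 and 56.1 in control LVs. The corresponding values in VEGFR-1 TK-/- LVs were 45.1, 40.0, 43.8 and 46.6. Every control library was above every VEGFR-1 TK-/- library, by a margin of under 1 CPM between the closest libraries. The means were 52.2 ± 5.64 and 43.9 ± 2.82 (SD, n = 4), a fold of 0.842 (95% interval 0.724 to 0.979) and a log2 fold change of −0.25 (SE 0.10). The unadjusted p of edgeR's quasi-likelihood test was 0.0284 and the FDR 0.519, and 737 genes had a lower p. The exact 2-sided permutation test gave p = 0.0286, the smallest that 4 libraries against 4 allow. Groups without overlap were found in 1 of the 8 isoforms and in 4.98% of all genes, and the share among the isoforms rests on this single gene. With CPM from total counts in place of TMM factors the groups overlapped, the lowest control library being at 43.2 and the highest VEGFR-1 TK-/- library at 48.1 CPM.

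Markers of several other cell types differed in the same direction as *Prkch*. Of 10 endothelial markers, 9 had a negative log2 fold change (median −0.23), and their sum was 2403 to 2965 CPM in the control and 2296 to 2550 CPM in the VEGFR-1 TK-/- libraries. No marker had an FDR under 0.1, and 4 of them (*Pecam1*, *Cdh5*, *Tie1*, *Erg*) had an unadjusted p under 0.05, as did 8.96% of all genes tested. Relative to this sum, the log2 level of *Prkch* was −5.74 ± 0.115 in the control and −5.80 ± 0.135 in the VEGFR-1 TK-/- libraries (SD, n = 4), a difference of −0.07 with overlapping groups. Negative log2 fold changes were also found in 6 of 8 mural cell markers (median −0.46), 8 of 8 fibroblast markers (−0.19) and 9 of 10 leukocyte markers (−0.29), and positive ones in 7 of 10 cardiomyocyte markers (0.12). By edgeR's quasi-likelihood test, the unadjusted p was under 0.05 in 4 mural, 0 fibroblast, 2 leukocyte and 2 cardiomyocyte markers. The groups did not overlap in 3 mural, 1 cardiomyocyte and 0 endothelial, fibroblast or leukocyte markers, against 4.98% of all genes tested. The part of these cell types in the level of *Prkch* was not tested beyond the ratio to endothelial markers. That ratio depends most on *Fabp4*, the endothelial marker with the highest level (931.7 CPM on average, log2 fold change −0.05). In RNA of whole tissue, fewer cells of a type and less RNA per cell cannot be told apart.

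**Figure D4:**
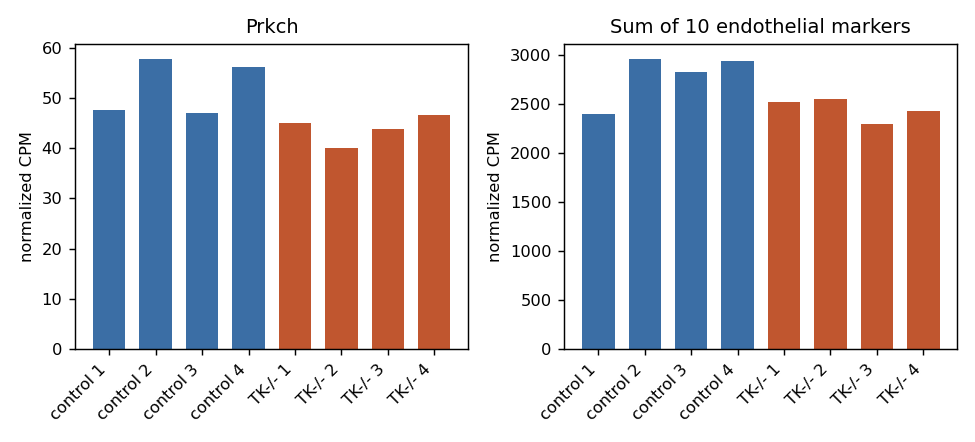
Bars give normalized CPM of *Prkch* (left) and the sum of 10 endothelial marker genes (right) in each library, control in blue and VEGFR-1 TK-/- in orange. Control replicates 2 and 4 are the highest libraries in both panels, and the groups overlap in the right panel because control replicate 1 is at 2403.

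*Prkce* (ENSMUSG00000045038, chromosome 17, 86167785 to 86657919) encodes PKCε, which in cardiomyocytes is known for its place at the sarcomere and its role in protection from ischemia. Its normalized CPM was 31.7, 24.2, 29.5 and 27.3 in control LVs against 29.2, 34.0, 31.8 and 30.9 in VEGFR-1 TK-/- LVs. Control replicates 1 and 3 lay within the range of the VEGFR-1 TK-/- libraries, and control replicates 2 and 4 below it. The log2 fold change was 0.16 (FDR = 0.680 with the quasi-likelihood test of edgeR, SE 0.10), with p = 0.171 by the exact permutation test. Replicate 2 of each group stood at opposite ends in *Prkce* and *Prkch*: control replicate 2 had the lowest *Prkce* and the highest *Prkch*, and VEGFR-1 TK-/- replicate 2 the highest *Prkce* and the lowest *Prkch*. The 472 exon bases that *Prkce* shares with the gene model AC154542.1 lie on the same strand, and that gene is not in the count table.

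*Prkcd* (ENSMUSG00000021948, chromosome 14, 30595354 to 30626210) encodes PKCδ, known for its part in cell death after ischemia. In the control replicates it was at 31.7, 32.4, 33.7 and 28.1 normalized CPM, and in the VEGFR-1 TK-/- replicates at 32.6, 31.5, 27.7 and 28.6. The groups covered almost the same range. The log2 fold change was −0.07 (FDR = 0.866 with the quasi-likelihood test of edgeR, SE 0.10), with a 95% interval from −0.28 to 0.15. *Prkcq* (ENSMUSG00000026778, chromosome 2, 11172108 to 11301222) encodes PKCθ, the isoform of T cells and skeletal muscle. Replicates 1 to 4 had normalized CPM values of 7.78, 6.39, 8.74 and 7.52 in control LVs against 7.23, 5.42, 7.51 and 6.62 in VEGFR-1 TK-/- LVs. Replicate 2 was the lowest library in each group and the groups overlapped, at a log2 fold change of −0.18 (FDR = 0.756 with the quasi-likelihood test of edgeR, SE 0.16). Relative to the sum of 10 leukocyte markers, its log2 level was −4.83 ± 0.237 in the control and −4.67 ± 0.302 in the VEGFR-1 TK-/- libraries (SD, n = 4), with overlapping groups. The T cell marker in this sum, *Cd3e*, had only 3 to 20 counts per library, so the ratio says little about T cells. The part of T cells or of other cell types in the level of *Prkcq* was not tested.

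*Prkci* (ENSMUSG00000037643, chromosome 3, 30995747 to 31052959) encodes PKCι, the atypical isoform of cell polarity. Its normalized CPM was 15.05, 15.2, 11.6 and 12.6 in control LVs against 13.9, 10.9, 12.3 and 12.4 in VEGFR-1 TK-/- LVs. Control replicates 1 and 2 were above all VEGFR-1 TK-/- libraries and control replicates 3 and 4 within their range, and the log2 fold change was −0.14 (FDR = 0.791 with the quasi-likelihood test of edgeR, SE 0.13). *Prkcz* (ENSMUSG00000029053, chromosome 4, 155260129 to 155361361) encodes PKCζ and, from an internal start, a short form without the regulatory part, which these counts do not separate. It had 31 to 67 counts per library. Replicates 1 to 4 had normalized CPM values of 4.64, 4.14, 2.08 and 3.36 in control LVs against 5.44, 4.53, 4.35 and 3.27 in VEGFR-1 TK-/- LVs. Control replicate 3 was the lowest and VEGFR-1 TK-/- replicate 1 the highest library, and between them the groups were mixed. The log2 fold change was 0.31 (FDR = 0.747 with the quasi-likelihood test of edgeR, SE 0.25). The atypical isoforms thus had fold changes of opposite sign, each with a 95% interval that took in 0.

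For each isoform, the 2 genes with the most similar course over the 8 libraries were taken as those with the lowest root mean square difference of log2 values after centring each gene on its mean. For *Prkch* these were *Dock1* (0.03) and *Qsox1* (0.05), with log2 fold changes of −0.21 and −0.25, against a median difference of 0.26 over all genes tested. *Becn1* and *Stag2* were nearest to *Prkca* (0.02 and 0.03), *Polr2m* and *Zwint* to *Prkce* (0.04 and 0.04), and *Acap3* and *Med23* to *Prkcd* (0.04 and 0.04). *Sec61b* and *Zc3hav1* were nearest to *Prkci* (0.05 and 0.06), and *Trappc12* and *Lrrc1* to *Prkcq* (0.05 and 0.06). The sparse isoforms had no close neighbour: the nearest genes were at 0.13 and 0.14 for *Prkcb* (*Gm28151*, *Gpx3*) and at 0.13 and 0.14 for *Prkcz* (*Rpl24*, *2210011C24Rik*). No isoform was among the 2 nearest genes of another, and the closest pair of isoforms was *Prkca* with *Prkcd* (0.10). With 13542 genes and 8 libraries, close neighbours arise readily, and the likeness is a description of these libraries.

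Of 67 other genes of the pathway, arranged in 6 lists, 64 were tested and 0 were called by edgeR's quasi-likelihood test, by its likelihood ratio test or by DESeq2. An unadjusted p under 0.05 was found in 7 of the 64, 4 with a positive and 3 with a negative log2 fold change. Over all genes tested, the share under 0.05 was 8.96%. The groups did not overlap in 2 of the 64, *Gnaq* and *Dgkd*, against 4.98% of all genes tested. Over all 64, the median log2 fold change was −0.05, with 26 genes higher and 38 lower. The lowest FDR among them was 0.453, for *Prkd2*.

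Upstream of PKC, the 15 genes that supply DAG had a median log2 fold change of −0.08. The α1-adrenergic receptors *Adra1a* and *Adra1b*, which couple to Gq, had log2 fold changes of 0.54 (FDR = 0.489 with the quasi-likelihood test of edgeR, SE 0.19) and 0.39 (SE 0.17, FDR = 0.525), with overlapping groups in both. *Adra1a* was at 7.58 ± 1.67 CPM in the control and 10.98 ± 2.28 CPM in the VEGFR-1 TK-/- libraries (SD, n = 4). The angII receptor *Agtr1a*, at 31.2 CPM on average, had a log2 fold change of 0.04, and *Gnaq*, the α subunit of Gq, one of −0.20. Among the phospholipases C, only *Plcb2*, with 31 to 52 counts per library, had a positive log2 fold change (0.46). The others ran from −0.27 for *Plcb1* to −0.05 for *Plcd1*. Of the 9 DAG kinases, which remove DAG, 6 were tested, with 3 higher and 3 lower. *Dgkd*, at a log2 fold change of −0.16 (FDR = 0.616 with the quasi-likelihood test of edgeR), was the only one of them without overlap of the groups, and that of *Dgkq* was 0.10.

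Among 12 genes that act on the maturation of PKC, such as *Pdpk1*, the kinase of its activation loop, and *Mtor* and *Rictor* of mTORC2, no unadjusted p was under 0.05 and the largest absolute log2 fold change was 0.24 (*Hsp90aa1*, a chaperone). *Phlpp1*, a phosphatase that acts on the serine shown in capitals in the C-terminal windows, was at −0.21 (FDR = 0.676 with the quasi-likelihood test of edgeR, SE 0.14). Of 15 scaffolds, 7 were higher and 8 lower, and the lowest p belonged to the anchoring protein *Akap5*, at 2.81 ± 1.63 and 1.42 ± 0.320 CPM (log2 fold change −0.99, SE 0.40, FDR = 0.521). *Sqstm1*, which encodes the atypical PKC partner p62, had a log2 fold change of 0.21 (FDR = 0.609).

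Of the 12 substrates, *Prkd2*, which encodes a protein kinase D activated by PKC, had the lowest p of all 64 genes. It was at 61.5 ± 7.92 CPM in the control and at 44.96 ± 6.80 CPM in the VEGFR-1 TK-/- libraries (SD, n = 4), a log2 fold change of −0.45 (FDR = 0.453 with the quasi-likelihood test of edgeR, SE 0.13) with overlapping groups. Its relatives *Prkd1* and *Prkd3* had log2 fold changes of 0.02 and −0.12. *Tnni3*, cardiac troponin I, was at 0.36 (SE 0.16, FDR = 0.551). The PKC-related kinases *Pkn2* and *Pkn3* had log2 fold changes of 0.00 and −0.23.

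**Figure D5:**
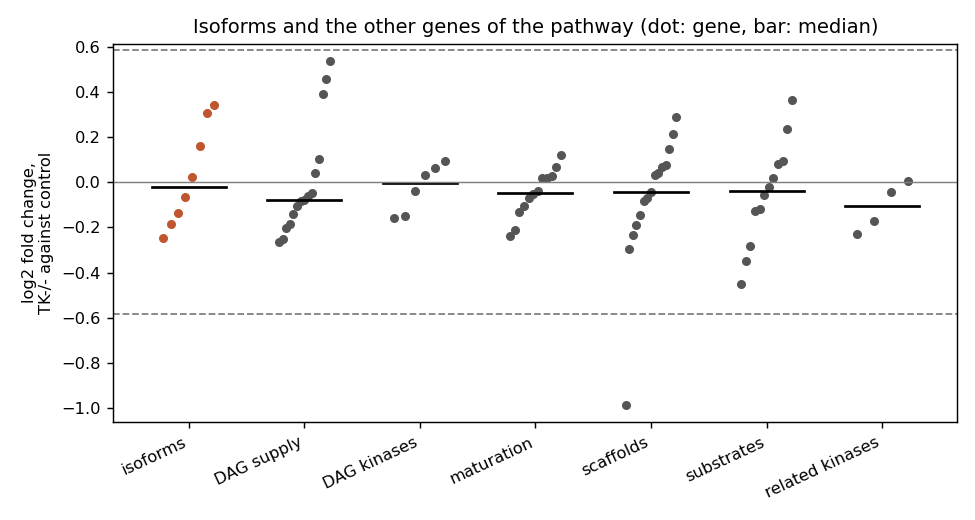
Each dot is the log2 fold change of a gene in VEGFR-1 TK-/- against control libraries, for the 8 isoforms (orange) and the tested genes of 6 pathway lists (grey), with bars at the medians and dashed lines at ±0.585. All medians lie between −0.11 and 0, and *Akap5* at −0.99 is the only gene beyond the dashed lines.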

How the data were processed

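The authors trimmed paired-end reads with Trim Galore 0.4.4, aligned them to GRCm38 with STAR 2.5.4b, used featureCounts with the GENCODE M16 annotation and deposited the raw counts per gene of 8 libraries. The use of strand, and of reads with several alignments, by the counter is not given in the sources used here. The labels describe depletion of ribosomal RNA and the study's methods poly-A selection. Every column was used.

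Genes were kept where 2 or more libraries had a CPM of 1 or more, and counts were normalized with TMM factors (0.917 to 1.12) and tested with edgeR 4.0.16 (glmQLFit, glmQLFTest, no covariates) in R 4.3.3, with Benjamini-Hochberg adjustment over 13542 genes. The SE is the absolute log2 fold change over the root of F. Single genes were also compared by an exact permutation test of log2 CPM (prior count 2). Coordinates, exon lengths and coding sequences are from GENCODE M21 (GRCm38), with list symbols matched by gene identifier. The tests were checked on simulated counts with changes much larger than those of the isoforms. This check does not show whether changes as small as theirs would be found. DESeq2 1.42.0, other scalings, filters, a block and left-out libraries were alternatives.

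The isoforms, lists and tests were chosen with earlier results of these data known. Named genes were the 8 isoforms, *Flt1*, the 2 genes of lowest p and any FDR under 0.1 in each pathway list, the 2 nearest genes of each isoform and genes with overlapping exons. The other list genes, the class sums and the ratios of *Prkch*, *Prkcb* and *Prkcq* to cell type markers were chosen after their values were seen. Some genes that these rules would name are not reported here.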

Additional observations from a re-analysis of the deposited data

How the results depend on the processing

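No isoform and no pathway gene was called under any of the 16 alternatives of test, normalization, filter, block or libraries. Over all genes, the likelihood ratio test called 53, DESeq2 32 and the test without a filter on low counts 23, against 1, and leaving out single libraries gave 1 to 3 (2 without control replicate 1, 3 without control replicate 2 or 4). The isoforms kept the sign of their log2 fold change under all alternatives, except *Prkca*, which was at −0.0104 without VEGFR-1 TK-/- replicate 2 (range over left-out libraries −0.0104 to 0.0517). The log2 fold change of *Prkch* ranged from −0.30 to −0.19, with an unadjusted p from 0.0101 to 0.0851 and under 0.05 in 11 of 16 alternatives. It was above 0.05 with total counts (0.0674) and without control replicate 2 (0.0851) or 4 (0.0782) or VEGFR-1 TK-/- replicate 2 (0.0814) or 3 (0.0548), all by edgeR's quasi-likelihood test. The number of isoforms without overlap was 1, 0 with total counts, and 1 to 2 when a library was left out, *Prkcq* joining *Prkch* without control replicate 2. With the replicate number as a block, *Prkch* was at −0.24 (FDR = 0.529, edgeR's quasi-likelihood test) and 1 gene was called in all. Deviations of same-numbered libraries correlated at −0.029, 0.029, 0.343 and −0.055, and only replicate 3 correlated most with its own number. These values cannot decide whether the numbers pair the libraries. Leaving out a library moved the log2 fold changes of *Prkcb* (0.14 to 0.51), *Prkcz* (0.11 to 0.46), *Prkcd* (−0.12 to −0.03), *Prkce* (0.09 to 0.22), *Prkci* (−0.21 to −0.08) and *Prkcq* (−0.26 to −0.10) by over 1.5 times, none of them called, and 12 to 67 counts per library limit the precision of *Prkcb* and *Prkcz*.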
